A study of Mus musculus with 22 samples.

Results

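The genes described here are 10 members of the AP-1 and immediate early groups: Fos, Fosb, Fosl1 and Fosl2, which make up the Fos family, Jun, Junb and Jund, which make up the Jun family, and the immediate early genes Egr1, Ier2 and Ier3. They were taken by their gene symbols from the 24421 genes counted in every library, and all 10 were measured. The RNA-seq series holds 22 libraries of mouse bladder organoids, which are epithelial cultures grown in 3 dimensions, and asks how Arid1a, a DNA-binding subunit of the BAF chromatin remodelling complex, relates to mRNA translation. Primary urothelial organoids were either wild type (WT) or knockout (KO) for Arid1a, with 3 libraries per genotype of total RNA, 3 of the polysome fraction of a sucrose gradient and 3 of its subpolysome fraction. The other 4 libraries were total RNA of bladder cancer organoids described as isogenic, 2 with the label WT and 2 with the label KO. Polysomes are mRNAs that carry several ribosomes, and the subpolysome fraction contains mRNAs with few or none. The deleted part of Arid1a, the means of deletion, the strain and age of the mice, and the number of animals or cultures behind the libraries are not stated in the sources used here. P-values therefore reflect how much these libraries vary, and that variation may be technical.

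AP-1 is a dimeric transcription factor. Fos proteins bind DNA only as partners of a Jun protein, whereas Jun proteins can also pair with each other. Fosl1 (Fra-1) and Fosl2 (Fra-2) lack the strong activation domain of Fos and Fosb. Immediate early genes are switched on by growth factors, stress and cell handling through MAP kinase signalling, with no need for new protein, and many of their mRNAs are short-lived because of AU-rich elements. Egr1 is a zinc-finger transcription factor, Ier2 is a nuclear protein of the same early response, and Ier3 (IEX-1) acts in cell survival. In bladder epithelium AP-1 takes part in the response to injury.

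Of the 10 members, 7 had a promoter window of 300 bases, 250 before and 50 after the start site, in the RefSeq sequences for GRCm38.p6. The windows of Jun and Ier3 are shown because these were the members that fell in all 3 kinds of RNA of the KO organoids. Jun is read from the minus strand of chromosome 4, and its window is chr4:95052173-95052472. Ier3 is read from the plus strand of chromosome 17, and its window is chr17:35821463-35821762. Capitals mark a match of TGACATCA, the variant AP-1 site for which the Jun promoter is known, 45 bases upstream of the start.
Jun: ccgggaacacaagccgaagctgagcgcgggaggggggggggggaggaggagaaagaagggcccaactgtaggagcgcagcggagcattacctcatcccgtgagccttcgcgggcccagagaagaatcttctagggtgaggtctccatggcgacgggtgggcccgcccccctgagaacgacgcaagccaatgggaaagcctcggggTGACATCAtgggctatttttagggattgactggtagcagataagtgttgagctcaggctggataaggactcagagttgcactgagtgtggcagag
Ier3: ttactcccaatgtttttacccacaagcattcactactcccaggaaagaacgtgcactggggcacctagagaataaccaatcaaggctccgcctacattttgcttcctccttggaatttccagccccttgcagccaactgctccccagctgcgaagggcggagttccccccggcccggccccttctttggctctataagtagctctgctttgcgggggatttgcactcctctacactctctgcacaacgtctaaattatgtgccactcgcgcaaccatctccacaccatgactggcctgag
Both strands of the windows were searched for TGANTCA, the classical AP-1 site, for TGACGTCA, for TGACATCA and for the CArG box, the site of serum response factor. Among all 32851 windows of that length, 7.81% held TGANTCA, 1.79% held TGACGTCA, 3.62% held TGACATCA and 1.63% held a CArG box. The Jun match was the only match of any of the 4 motifs in the windows of the 7 members, so none overlapped another, and no letters of the Ier3 window are in capitals. Sites more than 250 bases upstream were not searched, nor were Fosl1, Egr1 and Ier2, which had no window. The lack of a match in a window therefore does not show that a gene lacks the site. The windows follow RefSeq start sites, and for a pair of members these lie far from the gene models given below: that of Jund lies 1210 bases and that of Fosl2 671 bases from the start of the GENCODE model. For these 2 genes the search therefore does not cover the start of the model shown.

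A library held between 66227600 and 74605489 counts for total RNA, 64911189 and 76594655 for polysomes, 39245248 and 51628570 for subpolysomes, and 48429672 and 55431426 for cancer organoids. Levels below are CPM, counts relative to library size, scaled by TMM factors over all 22 libraries, and every difference is on a log2 scale. The basal markers Krt5, Krt14 and Trp63 were high in all total RNA, at 7160 to 9220 CPM for Krt5 in primary organoids. In primary total RNA the immune markers Ptprc and Lyz2 were at 0, and 13 of 14 immune and endothelial markers stayed under 1 CPM. Ribosomal protein genes took 33.4% to 39.1% of subpolysome counts but 4.6% to 6.9% of polysome counts. Arid1a itself stood at 114 to 130 CPM in WT against 74.8 to 83.8 CPM in KO total RNA, and it fell by 0.60 (SE 0.06, edgeR adjusted p = 5.68e-06). It was at 21.6 to 34.6 CPM in WT and at 13.9 to 23.6 CPM in KO polysomes, but at 55.8 to 62.8 CPM in WT and at 62.4 to 75.3 CPM in KO subpolysomes. Reads outside the deleted part would not check the labels. In the cancer libraries Arid1a was at 66.9 and 196 CPM in those labelled WT and at 175 and 56.7 CPM in those labelled KO, which goes against the labels for a pair of them.

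Per kilobase of exon in WT total RNA, Junb was the most abundant member at 186 ± 11.5 CPM per kb (SD, n = 3). Ier3 came next at 161 ± 9.34 CPM per kb. Jun at 84.7 ± 7.46 and Ier2 at 84.6 ± 10.3 CPM per kb did not differ beyond their spread. Jund followed at 55.7 ± 4.91 CPM per kb. Fosl2 at 48.4 ± 0.18 and Egr1 at 46 ± 2.88 CPM per kb overlapped. The other Fos family members were far lower, with Fosl1 at 12.2 ± 0.464, Fos at 8.59 ± 1.64 and Fosb at 0.913 ± 0.0666 CPM per kb. These cultures thus held mRNA of all 3 Jun family genes, and on the Fos side mainly that of Fosl2. In KO total RNA the same genes stood at both ends of the order, with Junb at 164 ± 11.3 and Fosb at 0.779 ± 0.0304 CPM per kb. Fosl2 at 59.6 ± 2.31 CPM per kb stood above Jun at 53.0 ± 3.16 CPM per kb there, the reverse of their order in WT.

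**Figure D1:**
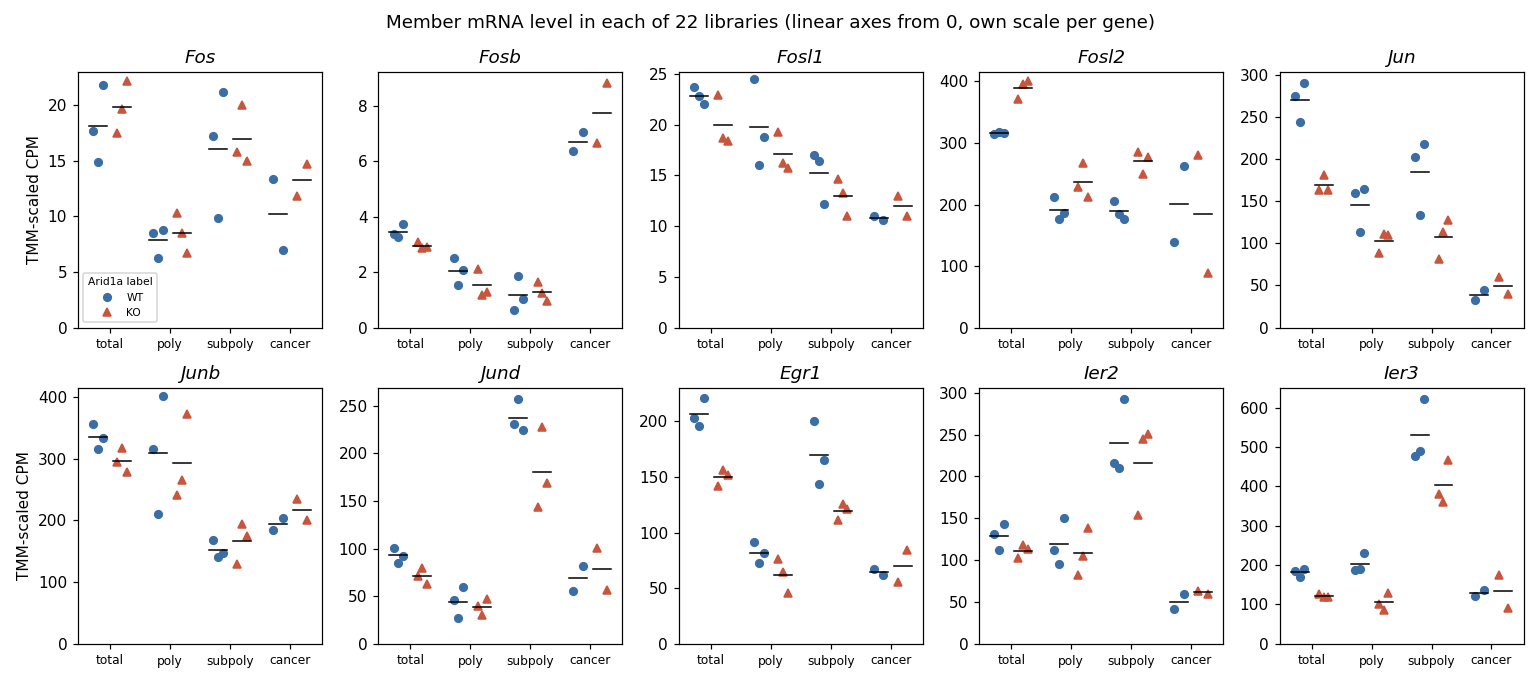
TMM-scaled CPM (vertical axes, linear from 0, a scale of its own for each gene) of the 10 members in each of the 22 libraries, by kind of RNA and genotype label, with a line at each group mean. Jun lies between 244 and 291 CPM in WT total RNA and between 163 and 181 CPM in KO total RNA, whereas Fosl2 lies higher in KO than in WT.

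In total RNA of the primary organoids, loss of Arid1a went with less Jun, Jund, Egr1 and Ier3 mRNA and with more Fosl2 mRNA. By edgeR's quasi-likelihood test with Benjamini-Hochberg adjustment over 13198 genes, 1 member rose and 4 fell at an adjusted p under 0.05. These 5 of 10 stand beside 53.2% of all genes tested, of which 27% rose and 26.3% fell, so the share of members that changed was near the background. The median difference of the 10 members was -0.19, and that of all genes tested was 0.00. In 6 members the genotypes did not overlap, beside 61.6% of all genes. DESeq2 called 7 members, adding Junb and Ier2.

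Among Jun family genes, Jun (chr4:95049034-95052222, 1 exon) encodes c-Jun, the main activating partner of Fos. It measured 275, 244 and 291 CPM in the WT libraries and 163, 181 and 164 CPM in the KO libraries. No KO library reached a WT library, and Jun fell by 0.65 (SE 0.07, adjusted p = 8.94e-06), which is 1.57 times lower. Jund (chr8:70698949-70700616, 1 exon), the member of the family least tied to stimulation, was at 101, 85.0 and 92.3 CPM in WT and at 71.5, 79.7 and 63.0 CPM in KO. These groups did not overlap either, and Jund fell by 0.35 (SE 0.09, adjusted p = 0.00446), a call that was lost when all 18 primary libraries were fitted together (difference -0.38, adjusted p = 0.163). Junb (chr8:84974484-84978718, 1 exon), which often opposes Jun at shared sites, measured 357, 316 and 334 CPM in WT against 295, 318 and 278 CPM in KO. Its groups overlapped, and the difference of -0.15 (SE 0.06) missed the threshold in edgeR (adjusted p = 0.0599) but not in DESeq2 (adjusted p = 0.0271).

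Of the Fos family, Fosl2 (chr5:32135801-32157842, 4 exons) was the only member of the 10 called higher. It stood at 315, 318 and 316 CPM in WT and at 372, 396 and 400 CPM in KO. The WT libraries lay within 3 CPM of each other, all below the KO libraries, and Fosl2 rose by 0.33 (SE 0.04, adjusted p = 3.96e-05), or 1.25 times. Fos (chr12:85473890-85477273, 4 exons), the founding immediate early gene, read 17.7, 14.9 and 21.8 CPM in WT against 17.5, 19.7 and 22.2 CPM in KO. The groups overlapped, with a difference of 0.16 (SE 0.13, adjusted p = 0.319) that passed without WT library 3 (adjusted p = 0.0441). Fosl1 (chr19:5447547-5455946, 4 exons), often raised in invasive epithelial cells, was at 23.7, 22.8 and 22 CPM in WT and at 22.9, 18.7 and 18.4 CPM in KO. KO library 1 lay within the WT range, and the difference was -0.16 (SE 0.08, adjusted p = 0.122), which passed without that library (adjusted p = 0.00803). Fosb (chr7:19302696-19310051, 4 exons), a close relative of Fos, was the lowest member, at 3.38, 3.25 and 3.73 CPM in WT against 3.08, 2.86 and 2.90 CPM in KO. Its KO values all lay below the WT values, but the difference of -0.20 (SE 0.12) did not pass (adjusted p = 0.195).

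Egr1 (3 exons), which binds GC-rich promoters, measured 203, 196 and 221 CPM in WT against 142, 156 and 152 CPM in KO total RNA. The groups stood well apart, and Egr1 fell by 0.43 (SE 0.05, adjusted p = 4.46e-05). Ier3 (chr17:35821684-35822923, 2 exons) read 186, 171 and 191 CPM in WT against 126, 120 and 118 CPM in KO. It had the smallest p of the members and fell by 0.56 (SE 0.05, adjusted p = 3.27e-06), or 1.48 times. Ier2 (chr8:84661331-84662852, 1 exon) was at 131, 112 and 143 CPM in WT and at 103, 118 and 113 CPM in KO. Its groups overlapped, with a difference of -0.18 (SE 0.08, adjusted p = 0.0816) that passed in DESeq2 (adjusted p = 0.037) and without WT library 2 (adjusted p = 0.00426). Ranked among all genes tested, the difference of Jun stood at percentile 9.2, that of Ier3 at 10.7, that of Egr1 at 13.7 and that of Fosl2 at 79. In bulk RNA, fewer cells that express a gene and less of its RNA per cell cannot be told apart.

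**Figure D2:**
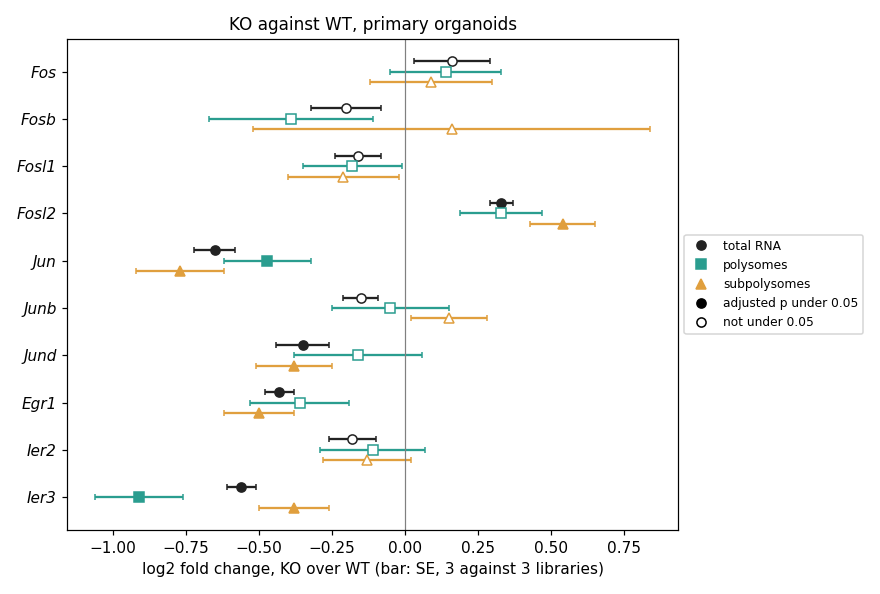
Log2 fold change of KO over WT (horizontal axis) for each member in total RNA, polysomes and subpolysomes of primary organoids, with bars of 1 SE from edgeR and filled symbols where the adjusted p is under 0.05. Jun and Ier3 are filled and below 0 in all 3 kinds of RNA, and Fosl2 lies above 0 in all 3, filled in total RNA and subpolysomes.

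The same comparison within polysomes gave fewer calls: 0 members rose and 2 fell, so 2 of 10 stand beside 28.8% of 13066 genes (14.9% higher, 13.8% lower). The members' median difference was -0.17, beside 0.01 for all genes. In 2 members the groups did not overlap, beside 43.1% of all genes. Ier3 measured 187, 190 and 232 CPM in WT polysomes and 101, 87.1 and 130 CPM in KO polysomes. No KO library reached a WT library, and Ier3 fell by 0.91 (SE 0.15, adjusted p = 0.000162). Jun read 160, 113 and 165 CPM in WT against 88.4, 111 and 110 CPM in KO polysomes. WT library 2 came within a few CPM of the KO libraries, and Jun fell by 0.47 (SE 0.15, adjusted p = 0.0278). The Jun call was lost without KO library 1 (adjusted p = 0.119), WT library 1 (adjusted p = 0.109) or WT library 3 (adjusted p = 0.114), while with the replicate number as a block it held (adjusted p = 0.00154).

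Egr1 was at 91.1, 72.5 and 81.4 CPM in WT and at 75.9, 64.4 and 46 CPM in KO polysomes. The highest KO library exceeded the lowest WT library, and the difference was -0.36 (SE 0.17, adjusted p = 0.124). Fosl2 stood at 212, 177 and 186 CPM in WT and at 229, 267 and 212 CPM in KO polysomes, with a difference of 0.33 (SE 0.14, adjusted p = 0.0854). With the replicate block both passed, Egr1 at -0.39 (adjusted p = 0.00683) and Fosl2 at 0.33 (adjusted p = 0.0244). For the other 6 members the differences in polysomes ran from -0.39 for Fosb (SE 0.28, adjusted p = 0.339) to 0.14 for Fos (SE 0.19, adjusted p = 0.633), and all their groups overlapped.

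Within subpolysomes 1 member rose and 4 fell, so 5 of 10 stand beside 22% of 12645 genes (11% higher, 11% lower). Their median difference was -0.17, beside 0.01 for all genes. Groups did not overlap in 4 members, beside 36.7% of all genes. Jun was at 203, 134 and 218 CPM in WT and at 81.4, 114 and 128 CPM in KO subpolysomes. The KO libraries all lay lower, and Jun fell by 0.77 (SE 0.15, adjusted p = 0.000584). Fosl2 read 206, 184 and 176 CPM in WT against 285, 250 and 278 CPM in KO, and it rose by 0.54 (SE 0.11, adjusted p = 0.000591). Again no KO library overlapped a WT library. Egr1 measured 200, 144 and 165 CPM in WT against 111, 126 and 121 CPM in KO subpolysomes. These groups were also separate, and Egr1 fell by 0.50 (SE 0.12, adjusted p = 0.00317).

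Ier3 stood at 477, 491 and 623 CPM in WT and at 381, 360 and 467 CPM in KO subpolysomes. The groups did not overlap, and Ier3 fell by 0.38 (SE 0.12, adjusted p = 0.0252), a call that was lost without KO library 1 (adjusted p = 0.0796), KO library 2 (adjusted p = 0.129) or WT library 3 (adjusted p = 0.175). Jund was at 231, 257 and 224 CPM in WT and at 144, 228 and 169 CPM in KO subpolysomes. KO library 2 lay within the WT range, and Jund fell by 0.38 (SE 0.13, adjusted p = 0.0342). That call did not hold with all 18 primary libraries in 1 fit (adjusted p = 0.132), with library totals as the only scaling (adjusted p = 0.0632), or without KO library 1 (adjusted p = 0.203), KO library 3 (adjusted p = 0.124), WT library 1 (adjusted p = 0.0599) or WT library 2 (adjusted p = 0.172). The other 5 members were not called, with differences from -0.21 for Fosl1 (SE 0.19, adjusted p = 0.474) to 0.16 for Fosb. Junb, at 168, 140 and 147 CPM in WT and at 130, 194 and 175 CPM in KO, spread more widely in KO, and Ier2, at 216, 210 and 293 CPM in WT and at 154, 245 and 251 CPM in KO, did so too. Fosb rested on few subpolysome reads, at 0.625 to 1.85 CPM, and its difference of 0.16 had an SE of 0.68.

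Whether the genotype difference itself varied between kinds of RNA was tested as an interaction. No member was called for polysome against subpolysome, beside 0.00747% of 13392 genes (1 gene) in edgeR, and no member by DESeq2, which called 12 genes. At an unadjusted p under 0.05 stood 1 member and 758 genes. The member with that p was Ier3, whose difference in KO over WT was lower by 0.51 in polysomes than in subpolysomes (SE 0.22, adjusted p = 0.877). For polysome against total RNA edgeR called no gene (0% of 13507) and DESeq2 called no gene, while 0 members and 263 genes had an unadjusted p under 0.05. There the Ier3 value was -0.32 (SE 0.17, adjusted p = 1). The larger fall of Ier3 in polysomes was therefore not shown to differ from its fall in total RNA or in subpolysomes.

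The same counts can be read as shares within each family, which restate the changes above on another scale. Junb made up 55.7% to 57.8% of the length-scaled Jun family mRNA in WT total RNA and 62.8% to 63.4% in KO. Jun made up 25% to 27.6% in WT and 19.9% to 21.2% in KO. Neither pair of ranges overlapped, and these shares do not depend on how the libraries were scaled to each other. On the Fos side, Fosl2 made up 67.7% to 70.7% in WT and 72.7% to 75% in KO total RNA, and Fosl1 made up 16.5% to 18.1% in WT and 11.9% to 15.7% in KO.

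**Figure D3:**
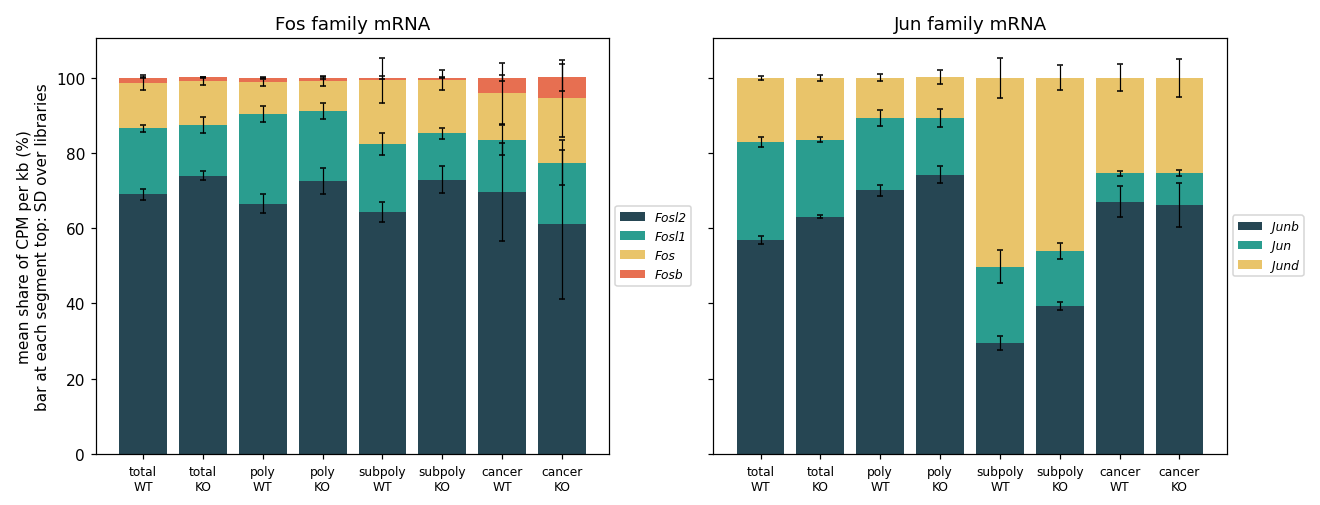
Mean share (vertical axis, percent of CPM per kb) of each gene in the summed Fos family (left) and Jun family (right) mRNA for the 8 groups, with bars of 1 SD over 3 primary or 2 cancer libraries. By its mean share Fosl2 takes most of the Fos family in every group, with the cancer libraries labelled KO at 47% and 75%. Jund takes 42.5% to 56.3% of the Jun family in subpolysome libraries but 9.08% to 12.7% in polysome libraries.

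Other genes of the pathway were taken from lists that were chosen with earlier results of these data known. AP-1 target genes, which carry AP-1 sites or respond to AP-1 in other cells, mostly fell in total RNA. Of 29 tested, 4 rose and 20 fell, with a median of -0.46 beside 0.00 for all genes. Of all genes tested there, 53.2% were called (27% higher, 26.3% lower). In polysomes 3 rose and 15 fell (median -0.46), beside 28.8% of all genes called there. In subpolysomes 2 rose and 12 fell (median -0.28), beside 22% of all genes called. The 3 targets with the smallest p all fell in total RNA. These were Lif, a cytokine (-1.69, SE 0.07, adjusted p = 3.79e-09), Plau, the urokinase protease (-1.57, SE 0.07, adjusted p = 8.84e-09), and Inhba, the activin A subunit (-2.52, SE 0.12, adjusted p = 2.18e-08). Lif, for example, averaged 171 ± 13.2 CPM (SD, n = 3) in WT and 52.1 ± 3.8 CPM (SD, n = 3) in KO total RNA.

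Among the other immediate early genes, 10 of 42 tested rose and 18 fell in KO total RNA, with a median of -0.17. This list and the AP-1 partners below stand beside 53.2% of all genes called (27% higher, 26.3% lower). Rhob, a small GTPase, fell by 0.96 (SE 0.06, adjusted p = 2.29e-07) and Btg2, an antiproliferative early gene, fell by 0.43 (SE 0.04, adjusted p = 2.99e-06). Klf4, a transcription factor of epithelial differentiation, rose by 0.91 (SE 0.08, adjusted p = 3.68e-06), so the early genes did not change in 1 direction. Of 13 AP-1 partner genes, which encode related basic leucine zipper proteins, 3 rose and 6 fell (median -0.07). Nfe2l2, the oxidative stress regulator NRF2, rose by 0.43 (SE 0.04, adjusted p = 6.18e-06), while Atf2 fell by 0.37 (SE 0.05, adjusted p = 3.6e-05).

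The upstream pathway, Ras and MAP kinases with the transcription factors they activate, was divided: 6 of 25 rose and 8 fell, with a median of 0.00. Each list in this paragraph stands beside 53.2% of all genes called in total RNA. The shares called of the upstream and decay genes were near that background. Elk1, a partner of serum response factor, fell by 0.45 (adjusted p = 4.52e-05) and Nras fell by 0.34 (adjusted p = 6.68e-05). Among 14 genes of mRNA decay, 4 rose and 4 fell (median 0.02). Zfp36l2, which binds AU-rich elements and promotes decay, rose by 0.76 (SE 0.04, adjusted p = 2.62e-08), as did Hnrnpd, another AU-rich element binder, by 0.44 (adjusted p = 2.16e-06), while the deadenylase gene Cnot8 fell by 0.39 (adjusted p = 4.26e-05). Heat shock genes, a sign of culture or handling stress, were also mixed, with 3 of 12 rising and 6 falling (median -0.03). Hspb1 rose by 0.67 (adjusted p = 2.28e-07), whereas Hspa8 fell by 0.45 (adjusted p = 2.86e-06) and Dnaja1 fell by 0.39 (adjusted p = 5.54e-05). Their summed level was 2410 to 2440 CPM in WT against 2190 to 2340 CPM in KO.

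Markers of cell types moved between the genotypes as well. Of all genes tested in total RNA, 53.2% were called (27% higher, 26.3% lower). Of 16 urothelial markers, 11 rose and 4 fell, led by the uroplakins Upk3b (3.22, adjusted p = 8.01e-10), Upk3a (2.36, adjusted p = 5.13e-09) and Upk1a (1.71, adjusted p = 6.67e-09), which mark superficial differentiated cells. The list did not move as 1 group. The epithelial adhesion genes Epcam (-1.63, adjusted p = 9.79e-08) and Cdh1 (-0.42, adjusted p = 4.54e-05) fell, as did the keratin Krt7 (-0.25, adjusted p = 0.000254). The basal markers went both ways. Krt14 fell (-0.40, adjusted p = 0.000119), while Trp63 (0.53, adjusted p = 7.85e-06) and Krt5 (0.22, adjusted p = 0.0181) rose. These 6 genes were chosen after their values were seen. The summed level of the list was 13600 to 15200 CPM in WT against 14500 to 15000 CPM in KO. Of 12 fibroblast and muscle markers, 5 could be tested, with Acta2 higher (1.71, adjusted p = 2.06e-08) and Vim (-1.30, adjusted p = 4.8e-07) and Col1a1 (-1.26, adjusted p = 7.61e-05) lower. Their sum was 78.6 to 80.5 CPM in WT against 41 to 52.1 CPM in KO, 9 of the 12 stayed under 1 CPM, and 3 were at 0. The sum of 14 immune and endothelial markers was 8.87 to 9.96 CPM in WT against 18.2 to 20.1 CPM in KO, nearly all of it Cd68 (1.11, adjusted p = 8.31e-07), which other cells also express in lysosomes. The part of these shifts in the differences of the 10 members was not tested.

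Across the gradient, with TMM scaling, Jund, Ier3, Fos, Egr1 and Ier2 were lower in the polysome than in the subpolysome fraction of both genotypes, Junb was higher, and the other 4 members were not called. In WT organoids 1 member was higher in polysomes and 5 were lower, so 6 of 10 stand beside 63.7% of 13392 genes (32.8% higher, 30.9% lower), a share near the background. The members' median was -0.73, beside 0.01 for all genes. In KO organoids the counts were also 1 higher and 5 lower, beside 61.6% of genes (31.7% higher, 29.9% lower), with a median of -0.60. Groups did not overlap in 6 members in WT, beside 69.1% of genes, and in 7 in KO, beside 64.8%.

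These directions depend on the scaling. TMM factors were 0.6 to 0.71 for subpolysomes and 1.06 to 1.22 for polysomes, and scaling by library totals alone moved the median of all genes by 0.83 in WT and by 0.89 in KO towards polysomes. The calls of all genes in WT then changed from 4397 higher and 4132 lower to 7954 higher and 1616 lower. In KO they changed from 4240 higher and 4005 lower to 8207 higher and 1350 lower. Among the members, 5 were then higher and 2 lower in each genotype. Only what holds on both scales is independent of that choice, and this applies to Jund and Ier3, lower in polysomes, and to Junb, higher in polysomes.

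Jund stood at 231, 257 and 224 CPM in WT subpolysomes and at 45.8, 27.2 and 59.3 CPM in WT polysomes. With a difference of -2.48 (SE 0.22, adjusted p = 3.97e-09) it was 5.57 times lower in polysomes, the member farthest from the middle of the scale. By library totals the difference was -1.66 (adjusted p = 1.05e-07). In KO organoids Jund differed by -2.24 (SE 0.22, adjusted p = 1.81e-08), or by -1.37 with library totals (adjusted p = 1.89e-06). Ier3 was at 477, 491 and 623 CPM in WT subpolysomes against 187, 190 and 232 CPM in WT polysomes. Its difference was -1.44 in WT (SE 0.16, adjusted p = 6.68e-08) and -1.95 in KO (SE 0.16, adjusted p = 1.1e-09). With library totals these were -0.61 (adjusted p = 0.000239) and -1.07 (adjusted p = 9.89e-08).

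Junb went the other way, from 168, 140 and 147 CPM in WT subpolysomes to 316, 211 and 401 CPM in WT polysomes. Every polysome library lay above every subpolysome library, with a difference of 0.98 in WT (SE 0.20, adjusted p = 0.000204) and 0.80 in KO (SE 0.20, adjusted p = 0.00145). Library totals gave 1.79 (adjusted p = 7.77e-09) and 1.66 (adjusted p = 2.55e-08). The Jun family therefore looked different in each fraction. Junb was 69.2% to 71.7% of its length-scaled mRNA in WT polysomes and 28.4% to 31.5% in WT subpolysomes, and Jund was 9.72% to 11.5% and 46.9% to 56.3%. Jun, the remaining member, took 16.8% to 21.1% in WT polysomes and 15.4% to 24.1% in WT subpolysomes, ranges that overlap.

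Fos, Egr1 and Ier2 were called lower in polysomes with TMM scaling but not with library totals. Fos read 17.2, 9.82 and 21.2 CPM in WT subpolysomes and 8.52, 6.29 and 8.77 CPM in WT polysomes, a difference of -1.09 (SE 0.23, adjusted p = 0.000329), which was -0.25 with library totals (adjusted p = 0.353). Egr1, at 200, 144 and 165 CPM against 91.1, 72.5 and 81.4 CPM, differed by -1.11 (SE 0.16, adjusted p = 2.5e-06), or by -0.29 with library totals (adjusted p = 0.157). Ier2, at 216, 210 and 293 CPM against 112, 94.8 and 150 CPM, differed by -1.06 (SE 0.20, adjusted p = 0.000105), or by -0.23 with library totals (adjusted p = 0.25). In KO organoids the TMM-scaled differences were -1.02 for Fos, -0.97 for Egr1 and -1.02 for Ier2, all called, and the values with library totals were -0.13, -0.07 and -0.15, none called.

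Fosl2 and Jun changed direction with the scaling. The Fosl2 difference in WT was -0.03 (SE 0.12, adjusted p = 0.847) and became 0.80 with library totals (adjusted p = 1.99e-05), and in KO it was -0.22 (SE 0.12, adjusted p = 0.113) and became 0.67 (adjusted p = 0.000159). Jun differed by -0.39 in WT (SE 0.18, adjusted p = 0.0657), called at -0.38 with the replicate block (adjusted p = 0.00189), and by 0.43 with library totals (adjusted p = 0.0377). In KO the Jun values were -0.08 (SE 0.18, adjusted p = 0.721) and, with library totals, 0.80 (adjusted p = 0.00041). Fosl1 lay at 0.32 in WT (adjusted p = 0.113) and at 0.36 in KO (SE 0.18, adjusted p = 0.0799), where the replicate block gave a call (0.37, adjusted p = 0.0291). It was called higher in polysomes with library totals, at 1.15 in WT and 1.26 in KO. Fosb lay at 0.77 in WT (SE 0.43, adjusted p = 0.127) and 0.22 in KO (adjusted p = 0.686), and with library totals it was called at 1.61 and 1.11.

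**Figure D4:**
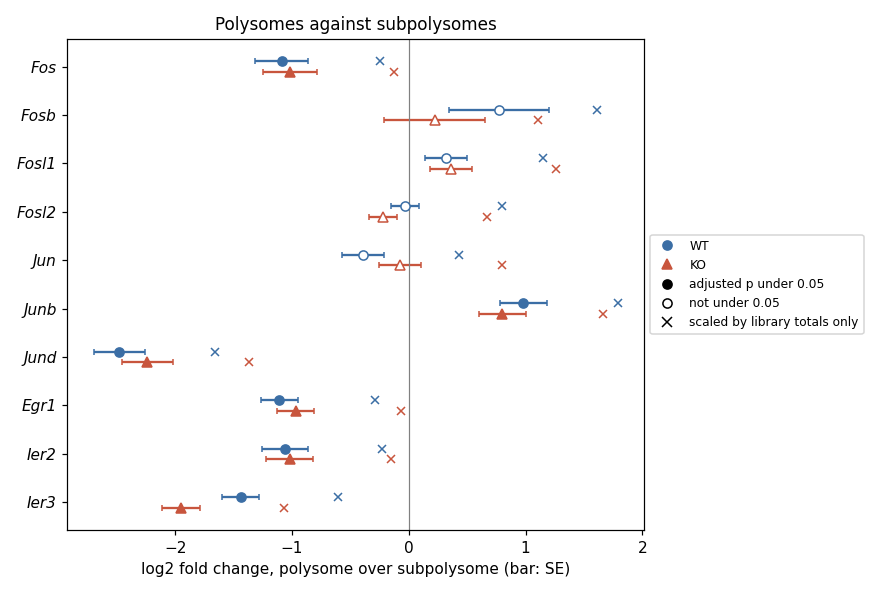
Log2 fold change of polysome over subpolysome (horizontal axis) for each member in WT and KO primary organoids, with bars of 1 SE, filled symbols where the edgeR adjusted p is under 0.05 and crosses for scaling by library totals alone. Jund and Ier3 stay below 0 and Junb above 0 on both scales, while Fosl2 and Jun lie below 0 with TMM scaling and above 0 with library totals.

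Among the other immediate early genes in WT, 9 of 42 were higher in polysomes and 18 lower (median -0.29), which turned to 21 higher and 7 lower with library totals (median 0.52, beside 0.84 for all genes). With TMM scaling 63.7% of all genes were called (32.8% higher, 30.9% lower). The median of this list lay below that of all genes on both scales. Nfkbia, the inhibitor of NFkB, was lower in polysomes by both, at -1.73 (SE 0.12, adjusted p = 5.89e-11) and -0.91. Btg1, an antiproliferative relative of Btg2, was at -1.24 (SE 0.13, adjusted p = 6.21e-08) and -0.43, and Rhob was higher by both, at 1.57 (SE 0.14, adjusted p = 2.38e-09) and 2.39. Of the 13 AP-1 partners 8 were higher and 3 lower (median 0.58), or 10 and 2 with library totals. In KO this list gave 4 higher and 4 lower (median 0.08, beside 0.01 for all genes), or 9 and 1 with library totals, and no gene of it was called for the interaction with genotype. In WT the small Maf genes Maff (2.22, SE 0.14, adjusted p = 3.15e-11) and Mafk (1.53, SE 0.14, adjusted p = 5.83e-09) were higher in polysomes, and Atf4, whose translation is held back by upstream reading frames outside stress, was lower (-2.04, SE 0.14, adjusted p = 4.58e-11). With library totals these were 3.03, 2.36 and -1.21.

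Polysomes were also compared with total RNA of the same genotype, where scaling by library totals moved the median of all genes by -0.08 in WT and -0.09 in KO. In WT no member was higher in polysomes and 6 were lower, beside 67.9% of 13507 genes (33.1% higher, 34.8% lower). The KO counts were the same, beside 66.1% of genes (32.7% higher, 33.4% lower). Medians of the members were -0.78 in WT and -0.73 in KO, beside -0.03 and -0.01 for all genes. Groups did not overlap in 6 members in each genotype, beside 72.7% of genes in WT and 69.7% in KO. In WT the 6 were Egr1 (-1.38, SE 0.14, adjusted p = 2.07e-07), Fos (-1.24, SE 0.17, adjusted p = 7.44e-06), Jund (-1.11, SE 0.21, adjusted p = 0.000138), Jun (-0.93, SE 0.13, adjusted p = 8.41e-06), Fosb (-0.79, SE 0.22, adjusted p = 0.00468) and Fosl2 (-0.76, SE 0.10, adjusted p = 2.88e-06).

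In KO organoids the same 6 genes were called, from -1.29 for Egr1 (adjusted p = 5.09e-07) to -0.73 for Jun (adjusted p = 0.000115) and Fosl2 (adjusted p = 4.67e-06). The 4 members not called were Fosl1, Junb, Ier2 and Ier3, with differences between -0.24 and 0.11 in WT and between -0.24 and -0.03 in KO. Ier3 in WT was 186, 171 and 191 CPM in total RNA and 187, 190 and 232 CPM in polysomes. Other immediate early genes leaned the same way as the members, with 5 higher and 28 lower of 42 in WT (median -0.66) and 6 higher and 29 lower in KO (median -0.67). The comparisons with subpolysomes and with total RNA share the polysome libraries. Subpolysomes were not tested against total RNA. With TMM scaling Jun, Fosl2 and Fosb also lay below total RNA in WT subpolysomes. Their means were 185, 189 and 1.17 CPM there, against 270, 317 and 3.45 CPM. Egr1 and Fos overlapped total RNA there, and Jund was higher (237 against 92.9 CPM). A level below that of total RNA is thus not by itself a low share in polysomes.

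In the cancer organoids, KO and WT could be compared only as labelled, with 2 libraries each, although Arid1a counts went against the labels of 2 libraries. No gene and no member passed in edgeR (0% of 12681 genes), 96 genes but no member had an unadjusted p under 0.05, and DESeq2 called 10 genes but no member. Member differences ran from -0.12 for Fosl2 (SE 0.67) to 0.38 for Fos (SE 0.42), all with an adjusted p of 1. In 2 members, Fosl1 and Ier2, the libraries labelled KO lay above those labelled WT, beside 20.6% of genes whose groups did not overlap. Fosl2 stood at 139 and 262 CPM in the libraries labelled WT and at 280 and 88.0 CPM in those labelled KO. The library labelled WT 2 and the library labelled KO 1 were thus the higher ones for Fosl2, as they were for Arid1a. They were also the higher ones for Jun, Junb, Jund and Ier3, but not for Fos, Fosb, Fosl1, Egr1 or Ier2. This split of the libraries was not particular to the members. Over 9712 genes, same-numbered cancer libraries deviated oppositely from their group means (r = -0.437). The share of all genes in the order of Arid1a was not counted. A link of the members' order with Arid1a was not tested. Ier3, at 122 and 137 CPM against 176 and 90.6 CPM, and Jund, at 55.9 and 82.1 CPM against 101 and 56.9 CPM, had their widest spread among the libraries labelled KO.

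Compared with total RNA of primary organoids, the 4 cancer libraries held less of most members. Counted over both genotypes, 1 member was higher and 7 were lower, so 8 of 10 stand beside 77.8% of 14305 genes (38.8% higher, 39% lower). The members' median was -0.81, beside -0.03 for all genes, and groups did not overlap in 8 members, beside 64.7%. Cancer cannot be told apart from any other difference between these sets of libraries, including the reported read processing. Bowtie was named for the primary libraries only, and the cancer libraries held fewer counts than those of primary total RNA. Marker levels differed too. Of 16 urothelial markers 2 were higher and 12 lower (median -3.94), with Upk2 and 2 others at 0 in the cancer libraries, and of 12 heat shock genes 9 were higher and 1 lower (median 1.59), with a summed level of 9010 to 9980 CPM. The part of either in the differences below was not tested.

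Jun was the member that differed most, at 33.3 and 44.7 CPM in the cancer libraries labelled WT and 59.5 and 39.3 CPM in those labelled KO, against 163 to 291 CPM in primary total RNA. It was lower by 4.96 times (difference -2.31, SE 0.15, adjusted p = 1.72e-06), at percentile 13.6 of the differences of all genes tested. As a result Jun made up 7.15% to 8.95% of the Jun family in cancer libraries, with Junb at 62.1% to 70.4%. Egr1, at 67.6 and 61.5 CPM with the WT label and 55.3 and 84.6 CPM with the KO label, was 2.67 times lower than in primary total RNA (difference -1.42, SE 0.12, adjusted p = 9.18e-06). Ier2 was at 41.7 and 59.3 CPM and at 63.0 and 59.8 CPM, below all libraries of primary total RNA (difference -1.13, SE 0.12, adjusted p = 3.23e-05).

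Fosb was the only member higher in cancer, at 6.35 and 7.05 CPM in libraries labelled WT and 6.65 and 8.81 CPM in those labelled KO, against 2.86 to 3.73 CPM in primary total RNA. The difference was 1.15 (SE 0.12, adjusted p = 4.63e-05), or 2.22 times. Fosl1 stood at 10.6 to 13.0 CPM (difference -0.93, SE 0.09, adjusted p = 2.89e-05) and Junb at 185 to 234 CPM (difference -0.65, SE 0.07, adjusted p = 6.34e-05), both below every library of primary total RNA. Fos, at 13.4 and 6.95 CPM and at 11.8 and 14.7 CPM, was lower by 0.73 (SE 0.20, adjusted p = 0.0105), a call lost against primary WT alone (-0.64, adjusted p = 0.0756). Fosl2 differed by -0.89 (SE 0.31, adjusted p = 0.0275). That call did not hold against primary WT alone (-0.72, adjusted p = 0.167), against primary KO alone (-1.07, adjusted p = 0.0612), without the cancer library labelled WT 1 (adjusted p = 0.0859) or without primary KO library 3 (adjusted p = 0.0506). Jund (-0.17, SE 0.18, adjusted p = 0.404) and Ier3 (-0.20, SE 0.16, adjusted p = 0.28) overlapped the libraries of primary total RNA. Without the cancer library labelled KO 1, which leaves 1 library in that group, the differences were -0.41 for Jund and -0.49 for Ier3. With each library left out in turn, Jund ran from -0.41 to 0.01 and Ier3 from -0.49 to 0.00. Of 44 other immediate early genes 8 were higher and 21 lower in cancer (median -0.74). Of 14 genes of mRNA decay 9 were higher and 3 lower (median 0.86). Both lists stand beside 77.8% of all genes called (38.8% higher, 39% lower).

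The pattern of each member over the 18 primary libraries was compared with that of 7205 genes by Pearson's r of log2 CPM. This log2 CPM used library totals alone, without the TMM factors of the levels above. The shift between fractions that library totals give to most genes therefore enters r, and r with TMM scaling was not computed. These r values describe libraries that share a fraction, a genotype and a depth. They say which genes have a like profile and no more. Fos was closest to Klf10 (r = 0.965) and Sik1 (r = 0.939), both on the list of immediate early genes. Jun was closest to Acap3 and Padi3 (both r = 0.969), Junb to St14 (r = 0.988) and Sphk2 (r = 0.987), and Jund to Csnk1g2 (r = 0.976) and Nudt3 (r = 0.955). Fosl2 lay close to Trim25 (r = 0.994), and Fosl1 matched Zfp385a (r = 0.987) and B3gnt3 (r = 0.985). Fosb lay near Hsd17b4 (r = 0.955) and Uaca (r = 0.948), Egr1 near Rnf111 (r = 0.98) and Clca2 (r = 0.978), and Ier3 near Npc2 (r = 0.927) and Npdc1 (r = 0.921). Ier2 had no close match, with Abtb1 at r = 0.765 and Mdfi at r = 0.681. Among the members themselves, r was 0.87 for Fos with Egr1, 0.83 for Jun with Egr1 and 0.92 for Fosl1 with Junb, and -0.71 for Fosl2 with Ier3.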

How the data were processed

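RNA-seq was deposited as raw counts per gene symbol, 1 file per library, for 24421 genes in 22 libraries. Per the submitters' processing notes, the authors counted reads with HTSeq against mm10, and Bowtie was named for the 18 primary libraries. Versions, the annotation, the use of strand, the handling of reads that match several places and a spliced aligner are not stated in the sources used here.

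Each comparison was fitted over all genes with edgeR 4.0.16 in R 4.3.3 (TMM, filterByExpr, glmQLFit, quasi-likelihood F test), with p-values adjusted by Benjamini-Hochberg across every tested gene and called below 0.05. The SE is the fitted log2 difference divided by the root of F. All 10 members passed the filter in every comparison. Single-library levels are CPM with TMM factors over all 22 libraries, and lengths are merged exons of GENCODE vM21. DESeq2 1.42.0, RLE factors, no filter, library totals, the replicate block and leaving out each library were alternatives. Scripts were tested on simulated data.

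Members and gene lists were chosen with earlier results of these data known. Named genes are the 10 members, the 3 called genes with the smallest p of each list in total RNA (for polysome against subpolysome in WT, of the other immediate early genes and AP-1 partners), and the 2 genes closest in pattern, searched where the average log2 CPM was 4 or more. A few genes that this rule names are not reported here. Same-group libraries differed beyond counting noise (chi-square per degree of freedom at least 11.888), so none was a duplicate.

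Replicate numbers are shared between groups in the labels, which do not say what a number marks. Same-numbered libraries deviated together from their group means (r over 0.1 in all 3 pairs) in polysomes (r = 0.255, 0.264 and 0.509), in subpolysomes (0.153, 0.118 and 0.177), between polysomes and subpolysomes (0.101 to 0.421 in WT, 0.123 to 0.34 in KO) and between polysomes and total RNA of KO (0.124 to 0.309), but not between the genotypes in total RNA (0.377, 0.116 and -0.17) or between polysomes and total RNA of WT (lowest 0.053).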

Additional observations from a re-analysis of the deposited data

How the results depend on the processing

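Over 87 results for members under the alternatives, 1350 values were computed, of which 1247 kept their direction and their side of the threshold, 24 lost the call, 40 gained one and 39 changed direction. None of those 39 belonged to a result that was called at first. Library totals with no scaling factors, and a crossed block in the cancer organoids, were chosen after seeing the data.

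Counts of called genes that moved by over 1.5 times were few. KO against WT in total RNA fell from 7025 to 3784 genes (3717 of them shared) with all 18 primary libraries in 1 fit, where the other fractions enter the estimate of spread. The interaction of genotype with polysome against subpolysome gave 1 gene, and 6 with all 18 libraries, 12 with DESeq2, 29 without the filter, 12 with the replicate block and 0 to 4 with a library left out. KO against WT in cancer organoids gave 0 genes, and 10 with DESeq2. The cause of these moves was not tested.

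Direction changed with library totals for Fosl2 (0.80 in WT, 0.67 in KO) and Jun (0.43 in WT, 0.80 in KO) in polysome against subpolysome, for Fosl2 there in WT also with all 18 libraries (0.01) and with no filter (0.00), and for Ier3 in cancer against primary KO only (0.07). With 1 library left out, values that crossed 0 ranged as follows. In polysomes KO against WT, Fos ran from -0.03 to 0.30, Fosl1 from -0.31 to 0.01, Ier2 from -0.29 to 0.08, Junb from -0.25 to 0.17 and Jund from -0.39 to 0.10. In subpolysomes Fos ran from -0.17 to 0.33, Fosb from -0.14 to 0.65 and Ier2 from -0.25 to 0.06. In polysome against subpolysome, Fosl2 in WT ran from -0.10 to 0.08, and in KO Fosb ran from -0.09 to 0.46 and Jun from -0.23 to 0.07. Against total RNA, Junb ran from -0.38 to 0.06 in WT and from -0.24 to 0.09 in KO, Ier2 in KO from -0.26 to 0.11, and the Jund interaction from -0.03 to 0.48. In cancer organoids KO against WT, Fos ran from -0.01 to 0.93 and Fosl2 from -1.19 to 0.48, and against primary organoids Jund ran from -0.41 to 0.01 and Ier3 from -0.49 to 0.00.

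Beside the calls given with the results, the replicate block changed 1 other member call, Fosl1 in polysomes against total RNA of WT (-0.27, adjusted p = 0.0373). The numbers pair only by the data, not by the labels. In the cancer organoids same-numbered libraries deviated oppositely (r = -0.437), and both pairings gave 0 genes. Depth limits Fosb in subpolysomes.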
